A study of Mus musculus with 22 samples.

Results

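The genes described here are 50 genes of the cell cycle and of mitosis, chosen by name from the 34378 gene names of the deposited expression table of this series. They were placed in 4 groups by role: 9 genes of the passage from G1 into S phase, 6 inhibitors of the G1 kinases, 13 genes of DNA replication, and 22 genes of G2 phase and mitosis. RNA was measured in cultured cardiac fibroblasts (CF) from the CD1 mouse strain, genotype aMHC-GFP, in which alpha-MHC (Myh6) promoter sequence drives green fluorescent protein. Cultures were infected with MGT, a retrovirus with Mef2c, Gata4 and Tbx5 on 1 polycistronic transcript that turns fibroblasts into induced cardiomyocytes, or with a lacZ control virus, and were taken on days 3, 5, 7, 10 and 14. Untransduced fibroblasts were taken on day 0. Every group carries the reporter, and the 11 groups had 2 arrays each. The labels do not say whether the 2 arrays of a group came from separate cultures, so the p-values measure the spread between these samples only, which may be technical.

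Cells enter the cycle when D-type cyclins with Cdk4 or Cdk6, and then cyclin E with Cdk2, phosphorylate the retinoblastoma proteins and free the E2F factors, which switch on the genes of DNA replication. The p16/p15/p18 family (Cdkn2a, Cdkn2b, Cdkn2c) blocks Cdk4 and Cdk6, and the p21/p27/p57 family (Cdkn1a, Cdkn1b, Cdkn1c) acts mainly on the Cdk2 complexes. Later in the cycle Mybl2 and Foxm1 switch on the genes of mitosis, among them cyclin B, Cdk1, the Aurora and Polo kinases, the spindle checkpoint, and the motors and kinetochore proteins that separate the chromosomes. Fibroblasts divide in culture, whereas cardiomyocytes of adult mammals rarely do.

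Levels are given as log2 of an array's processed signal over that array's 75th percentile, so that 1 unit is a doubling and 0 is the 75th percentile, and they compare arrays for 1 gene, not genes with each other. All 50 genes passed the filter on dim probes, and 48 were well above background on all 22 arrays. The exceptions were Ccne2, which was not well above background on either day 14 lacZ array or on 1 of the 2 day 10 lacZ arrays, and Cenpf, which was below it on every array of day 0, of lacZ days 5, 7, 10 and 14, and of MGT day 10, so that no size is given for Cenpf there. Arrays lay on 4 slides: days 3 and 5 on the first, days 7 and 10 on the second, day 0 and lacZ day 14 on the third, and MGT day 14 on the fourth. MGT and lacZ could therefore be compared within a slide on days 3 to 10. On day 14, between days 3 and 14, and between days 0 and 3, slide and group cannot be told apart.

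Some arrays stood apart. The 2 arrays of lacZ day 10 differed by a median of 0.505 log2 units over the 50 genes, against 0.185 over all genes, and replicate 2 was above replicate 1 for 41 of the 50 genes. In the other groups that median was 0.0327 to 0.189. The second lacZ day 14 array was dimmer than the rest, with a 75th percentile of 729, against 1285 to 2124 on the others. The cultures kept fibroblast RNA throughout: the summed level of 8 fibroblast markers was 455 to 869 times the 75th percentile on MGT arrays, 826 to 1370 on lacZ arrays, and 670 and 681 on day 0 arrays, with all 8 well above background in every group. The 8 cardiomyocyte markers summed to 340 to 882 on MGT arrays, against 12.6 to 56.6 on lacZ arrays and 14.8 and 16.6 on day 0 arrays, with 7 or 8 of them well above background in MGT groups, 3 to 7 in lacZ groups and 6 on day 0. All 8 macrophage markers were well above background in every group. Their sum was 46.2 and 43.3 on MGT day 3 and 156 and 172 on MGT day 14, against 32.4 and 32.1 on lacZ day 3 and 196 and 263 on lacZ day 14. The 8 endothelial markers summed to 6.55 to 20.5 on MGT arrays, 10.4 to 34 on lacZ arrays and 29.9 and 31.9 on day 0 arrays. The part of these cell types in the results below was not tested. In such bulk samples, fewer cells of a type and less RNA per cell cannot be told apart.

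The DNA before the start sites of replication and G2/M genes is shown because the 2 groups are known to be switched on through different promoter elements. RefSeq promoter windows (GRCm38.p6, 250 bases before to 50 after the start) were at hand for 40 of the 50 genes, in 45 windows, and were searched on both strands. The letters TTTGAA, known as the CHR element of mitotic promoters, stood in 13 of 18 windows of the G2/M genes, 1 of 12 of the replication genes, 0 of 7 of the G1/S genes and 1 of 8 of the inhibitors, against 17.9% of all 32851 windows. CCAAT, the letters of the element bound by NF-Y, stood in 16 of 18 G2/M windows and 9 of 12 replication windows, against 37.4% of all windows. It stood in 2 of 7 G1/S windows and 3 of 8 inhibitor windows. The E2F-type letters TTTNNCGC stood in 1 of 18 G2/M windows, that of Cdk1, and 7 of 12 replication windows, against 5.17% of all windows. They stood in 2 of 7 G1/S windows and 2 of 8 inhibitor windows. Both CHR and CCAAT were held by 13 of 18 G2/M windows, 1 of 12 replication windows and 6.95% of all windows. A match is a description of the letters and not of a bound site. Cdk1, Ccnb2, Cdc20 and Cenpa are shown as G2/M genes and Mcm5 and Mcm6 as replication genes, each as the bases just before its start, with the letters of the 3 motifs on either strand in capitals. The stretches are chr10:69352913-69353062, chr9:70421555-70421654 and chr4:118437344-118437443 on the minus strand, chr5:30666766-30666885 and chr8:75109359-75109508 on the plus strand, and chr1:128359706-128359825 on the minus strand.
Cdk1: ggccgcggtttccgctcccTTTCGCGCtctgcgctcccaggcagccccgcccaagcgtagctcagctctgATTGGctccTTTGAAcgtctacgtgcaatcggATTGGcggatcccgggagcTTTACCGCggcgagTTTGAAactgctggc
Ccnb2: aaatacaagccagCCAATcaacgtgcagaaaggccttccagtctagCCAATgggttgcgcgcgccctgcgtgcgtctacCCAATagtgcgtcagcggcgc
Cdc20: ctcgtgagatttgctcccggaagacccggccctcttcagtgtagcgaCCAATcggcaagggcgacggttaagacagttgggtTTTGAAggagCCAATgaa
Cenpa: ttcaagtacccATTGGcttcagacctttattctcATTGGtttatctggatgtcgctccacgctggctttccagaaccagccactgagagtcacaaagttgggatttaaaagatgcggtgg
Mcm5: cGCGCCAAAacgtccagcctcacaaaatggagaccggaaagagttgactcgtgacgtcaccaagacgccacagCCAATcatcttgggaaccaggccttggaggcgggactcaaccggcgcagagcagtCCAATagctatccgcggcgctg
Mcm6: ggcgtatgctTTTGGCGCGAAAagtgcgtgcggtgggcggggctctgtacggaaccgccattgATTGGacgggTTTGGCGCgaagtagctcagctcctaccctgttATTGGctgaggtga
In Mcm6 the long run of capitals holds overlapping matches on opposite strands. Cenpa has 2 CCAAT matches in the stretch shown and its CHR match outside it. Ccnb2 has 2 CHR matches in its window, neither of them in the stretch shown.

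Over the time course the replication genes were high on day 0 and lower on every later day. All 13 had their highest group mean in untransduced fibroblasts. By the test used throughout, limma on all 18056 measured genes with Benjamini-Hochberg adjustment and a threshold of 0.05, 12 of the 13 fell in MGT cultures on day 3 and 12 in lacZ cultures on day 3, each compared with day 0. These comparisons share the day 0 arrays and cross slides. The median difference of the 13 was -1.35 log2 units in MGT and -1.09 in lacZ cultures. Of the 50 members, 21 were lower and 16 higher on MGT day 3 (62.4% of all genes called, 33.1% lower and 29.3% higher), and 20 lower and 17 higher on lacZ day 3 (57.8% of all genes called, 29% lower and 28.8% higher).

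Mcm5, a subunit of the helicase that unwinds DNA at replication origins, was at 3.42 and 3.52 on day 0. In MGT cultures Mcm5 was at 1.72 and 1.66 on day 3, 1.40 and 1.35 on day 5, 0.71 and 0.60 on day 7, 0.59 and 0.61 on day 10 and 1.13 and 1.28 on day 14. In lacZ cultures Mcm5 was at 1.96 and 1.89 on day 3, 1.91 and 1.91 on day 5, 0.74 and 0.91 on day 7, 0.78 and 1.52 on day 10 and 1.53 and 1.73 on day 14. Every later array lay below both day 0 arrays. The difference from day 0 was -1.78 (SE 0.17, adjusted p = 8.08e-07) on MGT day 3 and -1.54 (SE 0.17, adjusted p = 4.49e-06) on lacZ day 3. Cdc6, which loads that helicase, fell by 1.79 in MGT and by 1.51 in lacZ cultures on the log2 scale, and Pcna, the sliding clamp of DNA polymerase, fell by 0.93 in MGT and by 0.96 in lacZ cultures. Gmnn (geminin), which blocks relicensing, was the replication gene not called, at -0.34 (SE 0.18, adjusted p = 0.131) in MGT and -0.29 (SE 0.18, adjusted p = 0.199) in lacZ cultures.

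Many of the 22 G2/M genes were above their day 0 level at first. On day 3, 11 of the 22 G2/M genes were higher and 3 lower in MGT cultures than on day 0, and 13 were higher and 2 lower in lacZ cultures, with median differences of 0.33 in MGT and 0.56 in lacZ cultures. Among 39 other mitosis genes the split was even or the other way, with 5 higher and 12 lower in MGT cultures (median -0.02) and 10 higher and 10 lower in lacZ cultures (median 0.06). Of all genes, 29.3% were higher and 33.1% lower on MGT day 3, and 28.8% higher and 29% lower on lacZ day 3. In all, 63.6% (MGT) and 68.2% (lacZ) of the 22 were called, and 43.6% and 51.3% of the 39. Over all genes these shares were 62.4% and 57.8%. Ccnb2, a cyclin that activates Cdk1, was at 2.13 and 2.13 on day 0. In MGT cultures Ccnb2 was at 3.06 and 3.02 on day 3, 3.17 and 3.17 on day 5, 2.18 and 2.10 on day 7, 1.88 and 1.75 on day 10 and 2.53 and 2.72 on day 14. In lacZ cultures Ccnb2 was at 3.16 and 3.14 on day 3, 3.62 and 3.66 on day 5, 1.96 and 2.07 on day 7, 1.96 and 2.69 on day 10 and 2.80 and 2.93 on day 14. All arrays of days 3 and 5 lay above day 0, and in each kind of culture the levels of days 7 and 10 were the lowest after infection. Its day 3 difference from day 0 was 0.91 (SE 0.16, adjusted p = 0.000283) in MGT and 1.02 (SE 0.16, adjusted p = 0.000134) in lacZ cultures. Plk1, the Polo kinase of mitosis, rose by 0.52 in MGT and 0.83 in lacZ cultures, and Kif20a, a kinesin of cell division, rose by 0.64 in MGT and 0.93 in lacZ cultures.

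Mybl2, the Myb factor that acts with the DREAM subunits on mitotic promoters, was highest on day 0, as were Foxm1, Top2a and Ccna2. Mybl2 was at 2.96 and 2.91 on day 0. In MGT cultures Mybl2 was at 0.94 and 1.07 on day 3, 0.64 and 0.71 on day 5, -0.02 and -0.05 on day 7, -0.37 and -0.45 on day 10 and -0.21 and 0.02 on day 14. In lacZ cultures Mybl2 was at 1.28 and 1.40 on day 3, 1.46 and 1.43 on day 5, 0.17 and 0.33 on day 7, 0.21 and 0.69 on day 10 and 0.54 and 0.49 on day 14. Both day 0 arrays lay above every other array, as for Mcm5. On day 3 its difference from day 0 was -1.93 (SE 0.12, adjusted p = 1.93e-08) in MGT and -1.59 (SE 0.12, adjusted p = 2.07e-07) in lacZ cultures. Foxm1, the forkhead factor of mitotic genes, fell as well, by 0.96 in MGT and 0.47 in lacZ cultures on the log2 scale, and Top2a, the topoisomerase that untangles chromosomes, fell by 0.53 in MGT cultures and was not called in lacZ cultures (-0.39).

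**Figure D1:**
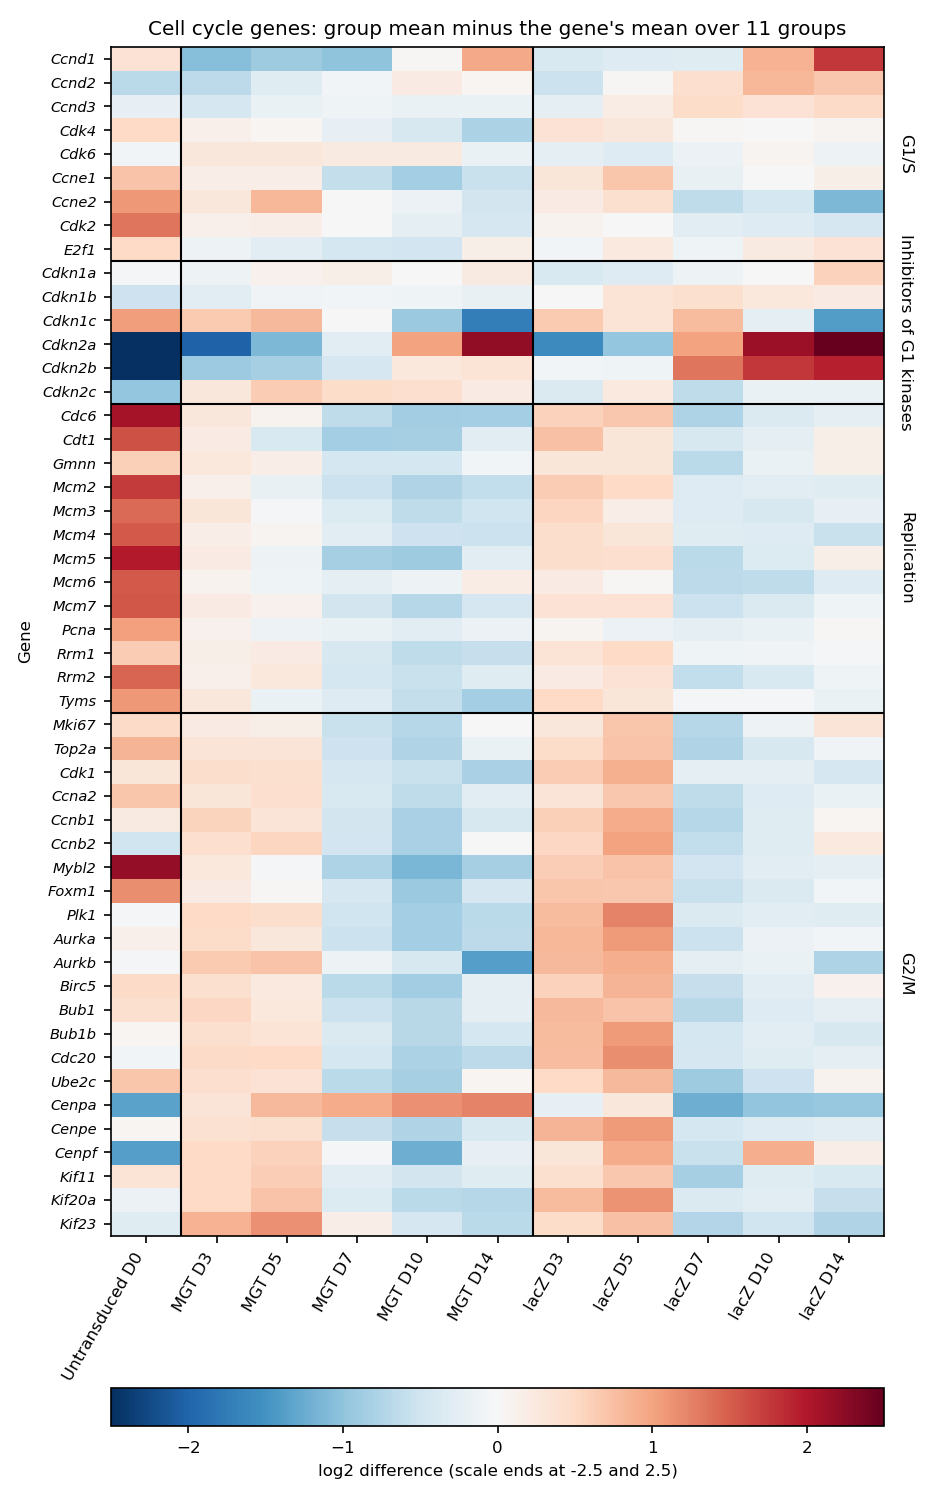
Group mean log2 level of each of the 50 genes minus that gene's mean over the 11 groups, with genes in rows by role and groups in columns (untransduced day 0, MGT days 3 to 14, lacZ days 3 to 14), and colours that end at -2.5 and 2.5. The replication block is high on day 0, the G2/M block is high on days 3 and 5, and Cdkn2a and Cdkn2b are low on day 0.

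After day 5 both the replication and the G2/M genes were lower. Between days 3 and 14, 18 of the 22 G2/M genes fell and 1 rose in MGT cultures (median -0.78), and 18 fell and 0 rose in lacZ cultures (median -0.80; limma, with 0 higher at an unadjusted p under 0.05 as well). Of the replication genes 9 fell in MGT and 10 in lacZ cultures. All 50 members gave 33 lower and 8 higher calls in MGT cultures (54.3% of all genes called, 27.5% lower and 26.8% higher), and 32 lower and 7 higher in lacZ cultures (56.8% of all genes called, 27.5% lower and 29.3% higher). Aurkb, the Aurora kinase of the chromosomal passenger complex, fell by 2.03 in MGT and by 1.57 in lacZ cultures, and Kif23, a kinesin of the midbody, fell by 1.54 in MGT and by 1.23 in lacZ cultures. The G2/M gene that rose in MGT cultures was Cenpa, by 0.92.

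The mean over the 22 G2/M genes shows the order of events. It was 1.215 and 1.197 on day 0. On MGT arrays this mean was 1.459 and 1.44 on day 3, 1.421 and 1.47 on day 5, 0.6787 and 0.6163 on day 7, 0.3895 and 0.2991 on day 10, and 0.5581 and 0.7235 on day 14. On lacZ arrays this mean was 1.585 and 1.584 on day 3, 1.871 and 1.876 on day 5, 0.4416 and 0.401 on day 7, 0.4428 and 1.026 on day 10, and 0.7227 and 0.8484 on day 14. The drop lay between days 5 and 7, which are on different slides, in both kinds of culture. For 15 of the 22 genes the highest group was lacZ day 5 (Cenpf among them, although below background there), and for 13 the lowest was MGT day 10. Between days 3 and 5, on 1 slide, 1 G2/M gene rose and 0 fell in MGT cultures, against 4 and 0 in lacZ cultures (limma, with 1 lower in MGT and 0 lower in lacZ cultures at an unadjusted p under 0.05). Over all 50 members, 2 were lower and 3 higher in MGT cultures (27.5% of all genes called, 14.1% lower and 13.4% higher), and 0 lower (1 at an unadjusted p under 0.05) and 11 higher in lacZ cultures (29.6% of all genes called, 15.5% lower and 14.1% higher). They are less firm than the others, since leaving out any 1 of the 4 arrays left 1 member called in MGT and 6 or 7 in lacZ cultures.

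**Figure D2:**
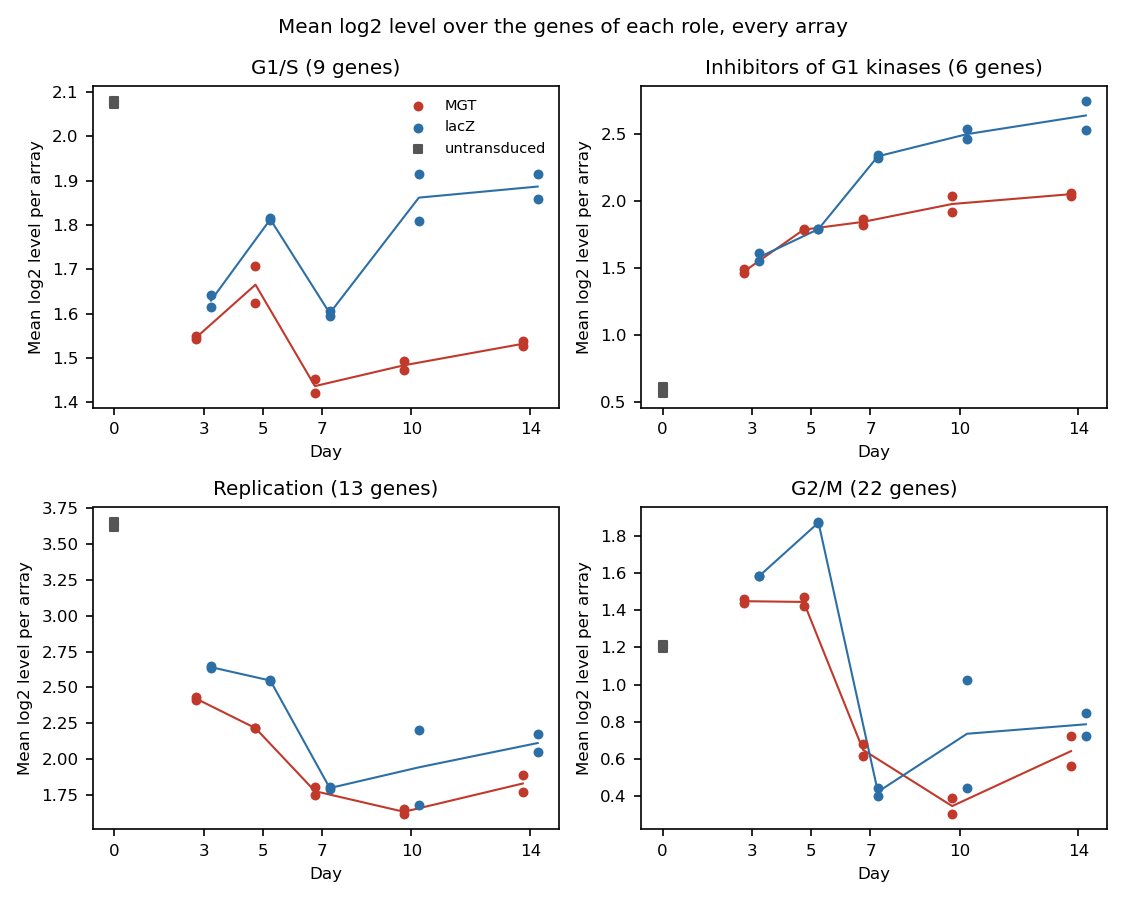
Mean log2 level of the genes of each role on every array (vertical axis, log2 of signal over the 75th percentile) against day (horizontal axis, to scale), for untransduced, MGT and lacZ cultures. Replication genes are highest on day 0, G2/M genes drop after day 5, and the 2 lacZ arrays of day 10 lie apart for replication (1.679 and 2.206) and G2/M (0.4428 and 1.026).

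Among the 6 inhibitors of the G1 kinases, 3 rose and 1 fell between days 3 and 14 in each kind of culture. That was 66.7% called, against 54.3% of all genes in MGT and 56.8% in lacZ cultures. Cdkn2a, which encodes p16Ink4a and p19Arf, was at -2.15 and -2.21 on day 0. In MGT cultures Cdkn2a was at -0.36 and -0.37 on day 3, 0.47 and 0.57 on day 5, 1.35 and 1.40 on day 7, 2.84 and 2.49 on day 10 and 3.84 and 3.92 on day 14. In lacZ cultures Cdkn2a was at 0.16 and -0.03 on day 3, 0.64 and 0.72 on day 5, 2.70 and 2.61 on day 7, 3.97 and 3.62 on day 10 and 5.20 and 5.01 on day 14. Levels climbed in both cultures from each sampled day to the next, and on every day both MGT arrays lay below both lacZ arrays. The difference between days 14 and 3 was 4.24 (SE 0.12, adjusted p = 1.14e-10) in MGT and 5.04 (SE 0.12, adjusted p = 2.6e-11) in lacZ cultures. Within slide 3, lacZ day 14 was 156-fold above day 0 (7.28, SE 0.12, adjusted p = 9.52e-14), a comparison added after the data were seen. These levels are from its brighter probe. Its second probe, which reads the same transcript, also rose between days 3 and 14 in both. On day 5, however, the second probe had both MGT arrays (-4.01 and -4.07) above both lacZ arrays (-4.47 and -4.15).

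Cdkn2b (p15Ink4b), its neighbour on chromosome 4, was at -0.49 and -0.62 on day 0. In MGT cultures Cdkn2b was at 1.90 and 1.86 on day 3, 2.02 and 1.88 on day 5, 2.29 and 2.44 on day 7, 3.06 and 3.03 on day 10 and 3.12 and 3.14 on day 14. In lacZ cultures Cdkn2b was at 2.71 and 2.71 on day 3, 2.67 and 2.69 on day 5, 4.03 and 4.23 on day 7, 4.73 and 4.37 on day 10 and 4.57 and 4.88 on day 14. Day 0 was the lowest group, and the MGT arrays were below the lacZ arrays on every day without overlap. LacZ day 14 was 38.9-fold above day 0 within the slide (5.28, SE 0.12, adjusted p = 9.34e-13). Cdkn1c (p57) went the other way, falling by 2.40 between days 3 and 14 in MGT and by 2.05 in lacZ cultures. The same slide 3 comparison had 31 members lower and 11 higher, with Cenpf among the higher ones although below background on both days (68.9% of all genes called, 33.4% lower and 35.5% higher). All 13 replication genes were among the lower ones, with a median of -1.62, and Ccnd1 rose by 1.40 and Ccnd2 by 1.35.

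The central comparison was MGT against lacZ. Averaged over the 5 days, 32 of the 50 members were lower and 7 higher in MGT cultures, and 11 were not called. Of all genes, 63.9% were called in this comparison (40.7% lower and 23.3% higher), against 78% of the members. The median difference of the 50 was -0.29, against -0.09 over all genes. By role, 6 G1/S genes were lower and 2 higher, 4 inhibitors lower and 2 higher, 9 replication genes lower and 1 higher, and 13 G2/M genes lower and 2 higher. On single arrays, 18 of the 50 genes had both MGT arrays below both lacZ arrays on all 5 days, and 2 genes, Cdkn2c and Cenpa, had both above. Of all genes with complete values, 17.3% had both MGT arrays below on all 5 days and 10.8% had both above. Another scaling, by the 75th percentile of probes above background on every array, raised the share of higher genes among all calls to 49.7%, against 36.4%, and gave 26 members lower and 7 higher.

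**Figure D3:**
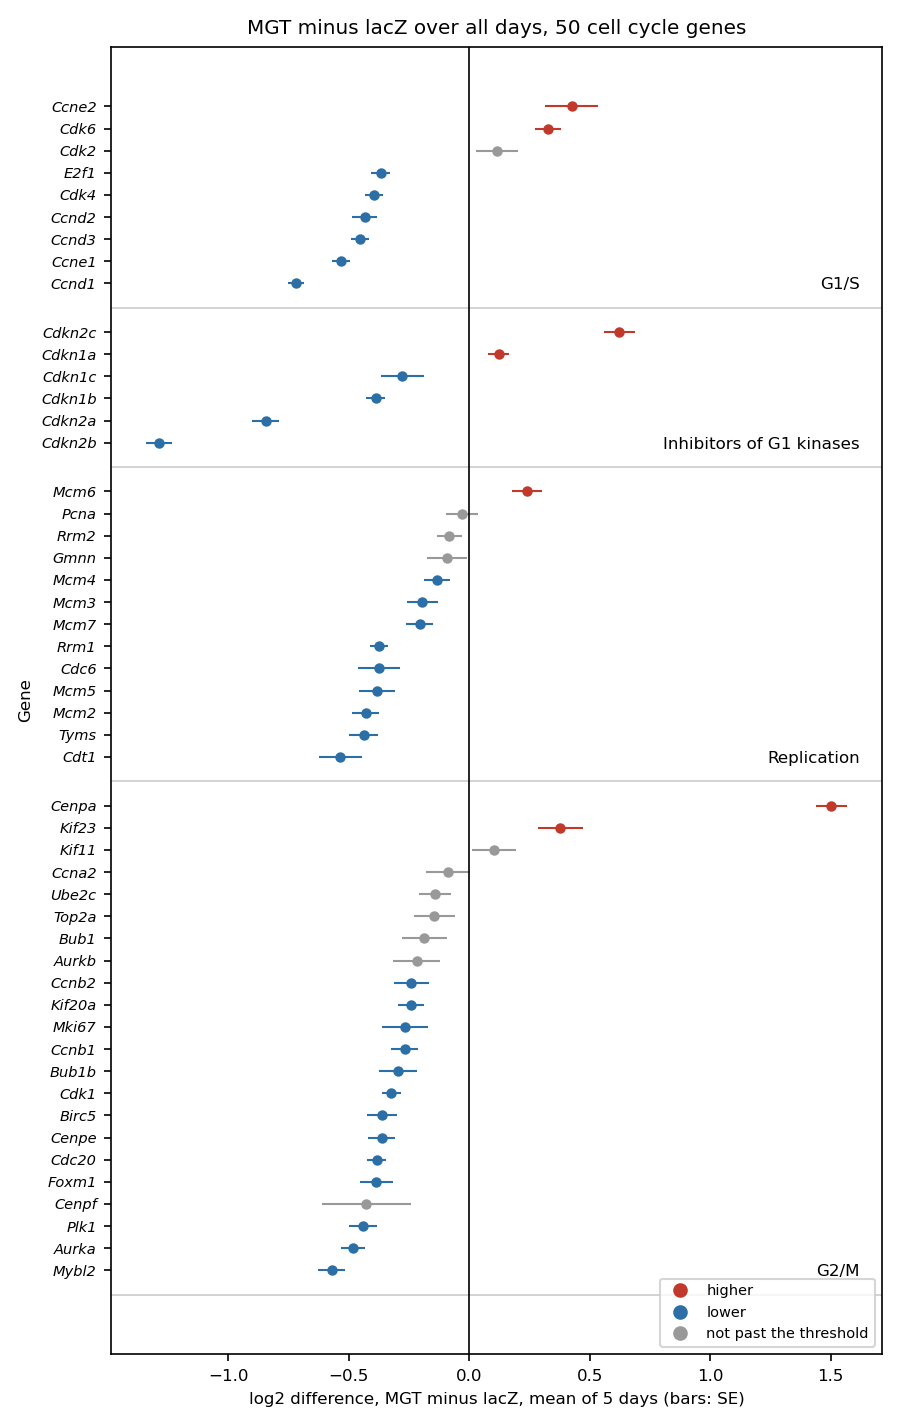
MGT minus lacZ log2 difference averaged over 5 days for each of the 50 genes by role (points, bars are the standard error), red for higher, blue for lower and grey for not past the threshold. Cdkn2b (-1.29) and Cdkn2a (-0.84) lie lowest and Cenpa (1.503) highest.

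Among the G1/S genes all 3 D-type cyclins and Cdk4 were lower in MGT cultures. Ccnd1 (cyclin D1) was at 3.53 and 3.48 on day 0. In MGT cultures Ccnd1 was at 2.07 and 2.07 on day 3, 2.17 and 2.31 on day 5, 2.10 and 2.15 on day 7, 3.14 and 3.21 on day 10 and 4.04 and 4.15 on day 14. In lacZ cultures Ccnd1 was at 2.75 and 2.75 on day 3, 2.80 and 2.81 on day 5, 2.83 and 2.86 on day 7, 3.88 and 4.13 on day 10 and 4.88 and 4.91 on day 14. It climbed late in both cultures, and the MGT arrays were below the lacZ arrays on every day without overlap. The averaged difference was -0.72 (SE 0.03, adjusted p = 4.37e-10), or 1.65-fold lower, and it was -0.68, -0.57, -0.72, -0.83 and -0.80 on days 3, 5, 7, 10 and 14. Ccnd2 was at -0.43, Ccnd3 at -0.45 and Cdk4, their kinase, at -0.40, all called. Cdk6, the other kinase, was higher (0.33, SE 0.05, adjusted p = 0.000137), with differences of 0.53 on day 3, 0.60 on day 5, 0.37 on day 7, and 0.16 and -0.02, neither called, on days 10 and 14.

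The E-type cyclins, partners of Cdk2 at the entry into S phase, were called in opposite directions. Ccne1 was at 2.73 and 2.91 on day 0. In MGT cultures Ccne1 was at 2.27 and 2.30 on day 3, 2.25 and 2.30 on day 5, 1.53 and 1.49 on day 7, 1.34 and 1.17 on day 10 and 1.56 and 1.57 on day 14. In lacZ cultures Ccne1 was at 2.5 and 2.35 on day 3, 2.82 and 2.78 on day 5, 1.94 and 1.93 on day 7, 2.11 and 2.13 on day 10 and 2.36 and 2.15 on day 14. The arrays of the 2 viruses did not overlap on any day, and the averaged difference was -0.53 (SE 0.04, adjusted p = 3.38e-08). Ccne2 was higher in MGT cultures by 0.43 (SE 0.11, adjusted p = 0.00446), and by 0.36 over days 3 to 10 alone. Within slide 1 Ccne2 was not called (0.26, adjusted p = 0.253), whereas within slide 2 it was called higher (0.47). On day 14 neither lacZ array was above background for Ccne2, and no direction is given there, since it reversed with normexp background correction. E2f1, the factor downstream of these kinases, was at -0.37 (SE 0.04, adjusted p = 2.81e-06), and Cdk2 was not called, at 0.12 (SE 0.09, adjusted p = 0.262).

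The Ink4 inhibitors gave the widest differences of the inhibitor group. Cdkn2b was 2.44-fold lower in MGT cultures (-1.29, SE 0.05, adjusted p = 1.4e-10) and Cdkn2a 1.79-fold lower (-0.84, SE 0.06, adjusted p = 1.63e-08). For Cdkn2b the difference was -0.78 over days 3 and 5, within slide 1, and -1.64 over days 7 and 10, within slide 2. For Cdkn2a it was -0.29 within slide 1 and -1.21 within slide 2. Both probes of each gene were called lower. Mtap, the gene beside Cdkn2a, was lower by a smaller amount (-0.43, SE 0.03, adjusted p = 7.39e-09).

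Cdkn2c (p18Ink4c) behaved in the opposite way. It was at -0.24 and -0.12 on day 0. In MGT cultures Cdkn2c was at 0.99 and 1.18 on day 3, 1.36 and 1.51 on day 5, 1.29 and 1.23 on day 7, 1.28 and 1.15 on day 10 and 0.97 and 1.04 on day 14. In lacZ cultures Cdkn2c was at 0.46 and 0.41 on day 3, 1.05 and 1.01 on day 5, 0.24 and 0.07 on day 7, 0.37 and 0.89 on day 10 and 0.77 and 0.48 on day 14. The MGT arrays lay above the lacZ arrays on every day, and the averaged difference was 0.62 (SE 0.06, adjusted p = 1.72e-06), 1.54-fold higher. Cdkn1b (p27) was lower (-0.39, SE 0.04, adjusted p = 1.19e-06). Cdkn1c was lower on average (-0.28, SE 0.09, adjusted p = 0.0147), with -0.76 within slide 2, whereas within slide 1 it was not called and lay at 0.23. Cdkn1a (p21), the p53 target, was higher on average by 0.12 (SE 0.04, adjusted p = 0.0247), a call lost when any 1 of 5 arrays was left out (MGT day 3 replicate 1, MGT day 5 replicate 2, MGT day 7 replicate 2, MGT day 10 replicate 1 or lacZ day 7 replicate 2), at an adjusted p of 0.0505 to 0.0547. On the brighter of its 2 probes the direction differed between days. There Cdkn1a was at 0.25 on day 3 (not called), and higher at 0.43 on day 5 and 0.28 on day 7. It was at 0.02 on day 10 (not called), and lower at -0.35 on day 14. The second probe was not called on day 14, with a mean of 0.36 in MGT and 0.22 in lacZ cultures.

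Most replication genes were modestly lower in MGT cultures. The lowest values were those of Cdt1, a licensing factor (-0.53, SE 0.09, adjusted p = 0.000133), Tyms, thymidylate synthase (-0.44, SE 0.06, adjusted p = 2.8e-05), and Mcm2 (-0.43, SE 0.06, adjusted p = 1.98e-05). Mcm5 was at -0.38, Cdc6 at -0.38, Rrm1, the large subunit of ribonucleotide reductase, at -0.37, Mcm7 at -0.20 and Mcm3 at -0.19, all called. Over days 3 to 10 alone, where MGT and lacZ share slides, Mcm3 was not called (-0.17, adjusted p = 0.0522), and within a single slide neither Mcm3 nor Mcm7 was called, nor Cdc6 on slide 2. Mcm4 was at -0.13 with an adjusted p of 0.0468, a call lost in 16 of the 20 fits that left out 1 MGT or lacZ array. Pcna (-0.03), Rrm2 (-0.08) and Gmnn (-0.09) were not called.

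Mcm6, another helicase subunit, was the replication gene called higher. It was at 6.30 and 6.24 on day 0. In MGT cultures Mcm6 was at 4.86 and 4.80 on day 3, 4.67 and 4.60 on day 5, 4.58 and 4.44 on day 7, 4.73 and 4.51 on day 10 and 4.96 and 4.90 on day 14. In lacZ cultures Mcm6 was at 4.94 and 4.96 on day 3, 4.77 and 4.78 on day 5, 4.05 and 4.10 on day 7, 3.82 and 4.39 on day 10 and 4.34 and 4.504 on day 14. Its MGT level changed little after day 3 while the lacZ level was lower from day 7 on, with no overlap on days 7, 10 and 14. The averaged difference was 0.24 (SE 0.06, adjusted p = 0.00394), made up of -0.13 within slide 1, which was not called, and 0.47 within slide 2.

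Of the G2/M genes, Mybl2 was 1.48-fold lower in MGT cultures (-0.57, SE 0.06, adjusted p = 9.59e-07), with -0.55 within slide 1 and -0.57 within slide 2. These values are from its brighter probe, and only 1 of its 2 probes was called lower. Aurka, the Aurora kinase of the spindle poles, was at -0.48 (SE 0.05, adjusted p = 2.34e-06), and Plk1 at -0.44 (SE 0.06, adjusted p = 2.05e-05). Foxm1 and Cdc20, the activator of the anaphase-promoting complex, were both at -0.38, and Birc5 (survivin) and the kinetochore motor Cenpe both at -0.36. Cdk1 was at -0.32, Bub1b at -0.30, Ccnb1 at -0.27, and Ccnb2 and Kif20a both at -0.24, all called. Mki67, the proliferation antigen Ki-67, was at -0.27 (SE 0.09, adjusted p = 0.0249), a call lost without MGT day 14 replicate 1 (-0.24, adjusted p = 0.054) or over days 3 to 10 alone (-0.26, adjusted p = 0.0531). Within slide 2, Foxm1, Bub1b, Ccnb1, Ccnb2, Kif20a and Mki67 were not called, nor were Ccnb2 and Mki67 within slide 1. The genes not called were Top2a (-0.14), Ube2c (-0.14), Aurkb (-0.22), Bub1 (-0.19), Ccna2 (-0.09), Kif11 (0.10) and Cenpf. Without lacZ day 10 replicate 1, all of these but Kif11 and Cenpf were called lower, at -0.30 (Aurkb) to -0.18 (Ccna2), and 46 members were called in all. Without lacZ day 10 replicate 2, Kif11 (0.18) and Cdk2 (0.19) were called higher, and 41 members were called in all.

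Cenpa, the histone H3 variant that marks centromeres, gave the widest difference of the 50 genes. It was at 0.66 and 0.70 on day 0. In MGT cultures Cenpa was at 2.37 and 2.30 on day 3, 2.87 and 2.79 on day 5, 2.93 and 2.96 on day 7, 3.27 and 3.06 on day 10 and 3.27 and 3.24 on day 14. In lacZ cultures Cenpa was at 1.82 and 1.83 on day 3, 2.27 and 2.33 on day 5, 0.77 and 0.81 on day 7, 0.75 and 1.31 on day 10 and 1.24 and 0.89 on day 14. MGT levels stayed high when the lacZ levels dropped after day 5, and no arrays overlapped on any day. The averaged difference was 1.503 (SE 0.06, adjusted p = 1.93e-10), 2.83-fold higher, with 0.52 within slide 1 and 2.14 within slide 2. Cenpa was read by 1 probe. The genes beside it in the genome were also called in this comparison: Slc35f6 at 0.53 (SE 0.05), Kcnk3 at 0.98 (SE 0.09, above background on 15 of the 22 arrays), Mapre3 at 0.32 (SE 0.03) and Dpysl5 at -0.45 (SE 0.10). Kif23 was the other G2/M gene called higher (0.38, SE 0.09, adjusted p = 0.00335).

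**Figure D4:**
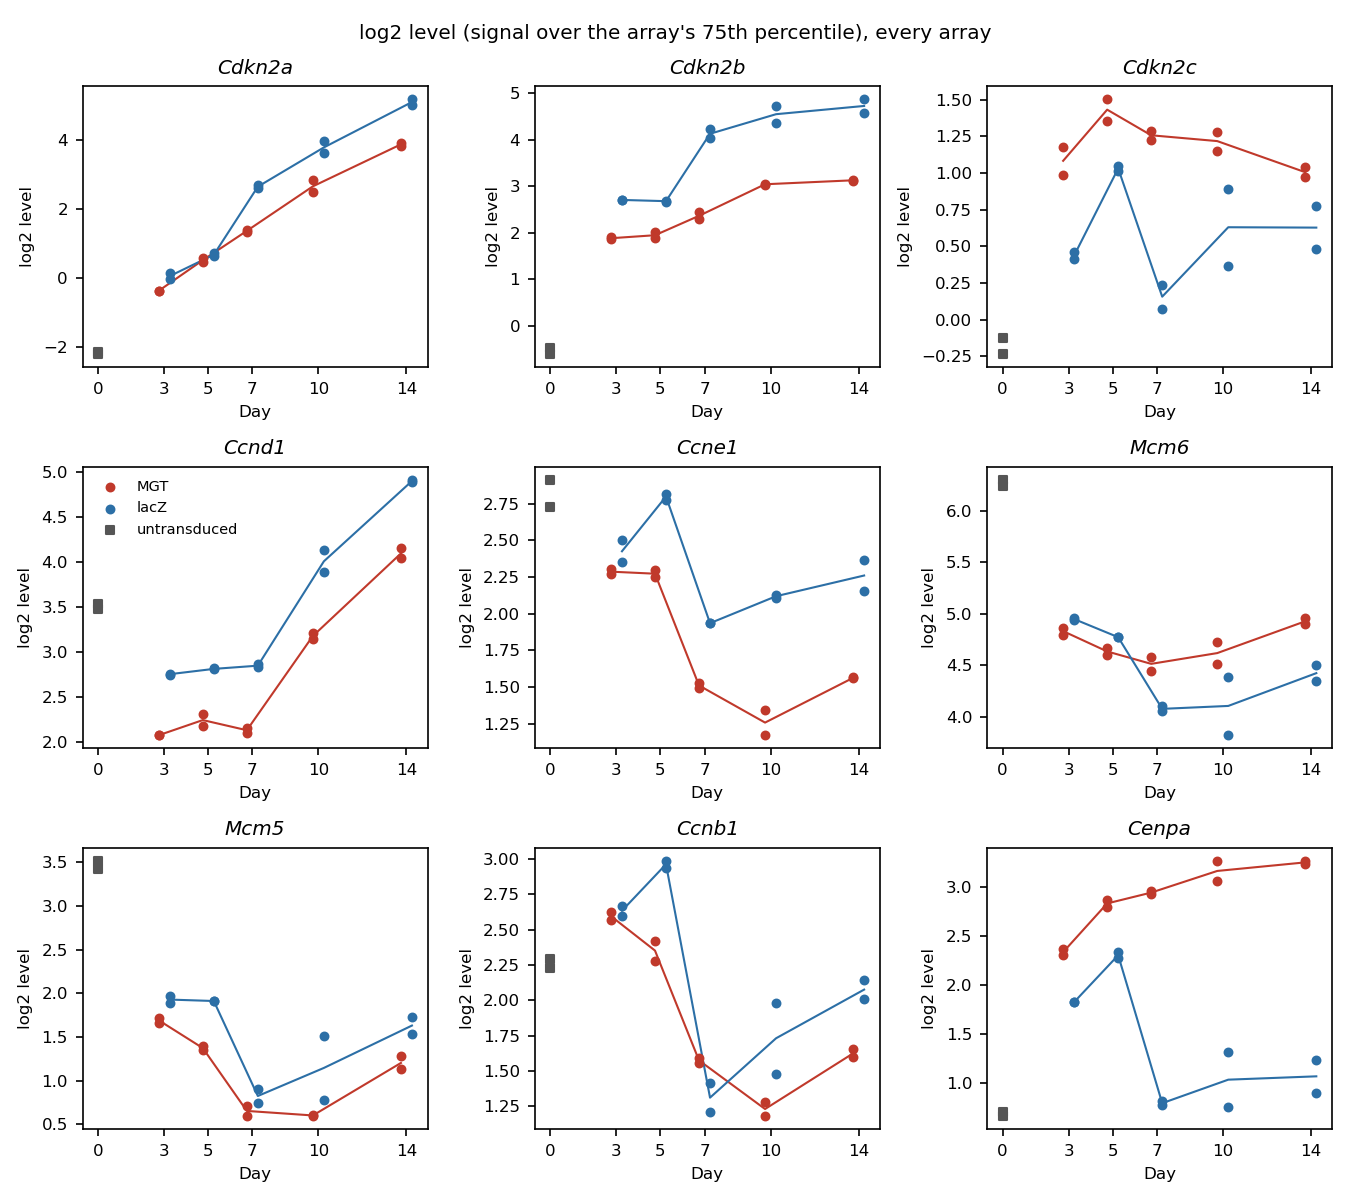
Log2 level on every array against day (to scale) for Cdkn2a, Cdkn2b, Cdkn2c, Ccnd1, Ccne1, Mcm6, Mcm5, Ccnb1 and Cenpa, in untransduced, MGT and lacZ cultures. MGT and lacZ separate on every day for Cdkn2b, Cdkn2c, Ccnd1, Ccne1 and Cenpa, whereas Ccnb1 overlaps on day 3.

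The counts of G2/M genes differed from day to day, and apart from days 3 and 14 the differences between days were not tested. On day 3, 4 of the 22 were lower and 1 higher in MGT cultures. On day 5, 13 were lower and 1 higher. Day 7 had 3 higher and 0 lower by limma (2 lower at an unadjusted p under 0.05). On day 10 there were 13 lower, Cenpf among them, and 1 higher, and on day 14 7 lower and 1 higher. Over the 50 members, 9 were lower and 3 higher on day 3 (30.4% of all genes called, 18.1% lower and 12.4% higher). Day 5 had 27 lower and 4 higher (38.1% of all genes called, 21.9% lower and 16.2% higher), and day 7 had 11 lower and 7 higher (37.3% of all genes called, 22.4% lower and 14.9% higher). Day 10 had 29 lower and 3 higher (39.4% of all genes called, 24.2% lower and 15.2% higher), and day 14 had 19 lower and 4 higher (47.6% of all genes called, 29.3% lower and 18.3% higher). The 4 higher on day 14 include Ccne2, for which no direction is given on that day. The median member difference was -0.16, -0.40, 0.05, -0.43 and -0.33 on days 3, 5, 7, 10 and 14, against -0.06, -0.06, -0.07, -0.11 and -0.09 over all genes. On day 3, 5 to 7 members were called when any 1 of its 4 arrays was left out, against 12. On day 5 leaving out replicate 1 of MGT or of lacZ left 20 members called, against 31. On day 7 it was 10 without lacZ replicate 2 and 11 without MGT replicate 2, against 18. On day 14 it was 15 without MGT replicate 1, against 23.

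Plk1 shows the pattern. In MGT cultures Plk1 was at 3.24 and 3.28 on day 3, 3.19 and 3.21 on day 5, 2.30 and 2.22 on day 7, 1.99 and 1.83 on day 10 and 2.02 and 2.18 on day 14. In lacZ cultures Plk1 was at 3.62 and 3.51 on day 3, 4.01 and 4.001 on day 5, 2.31 and 2.48 on day 7, 2.24 and 2.78 on day 10 and 2.45 and 2.46 on day 14. The groups did not overlap on days 3, 5, 10 and 14, and on day 7 they lay close together, with both MGT arrays just below. The difference was -0.81 (SE 0.13, adjusted p = 0.000281) on day 5, -0.14 (SE 0.13, adjusted p = 0.466) on day 7 and -0.59 (SE 0.13, adjusted p = 0.00283) on day 10. The 2 lacZ arrays of day 10 lay apart, at 2.24 and 2.78, whereas the SE pools the spread of all 11 groups. Day 10 values therefore rested on which lacZ array was used. Aurka gave -0.78 on day 5, 0.01 (not called) on day 7 and -0.70 on day 10, and Cdc20 gave -0.67, -0.01 (not called) and -0.50 on the same days. The genes higher in MGT cultures on day 7 were Cenpa (2.15), Kif23 (0.90, SE 0.21, adjusted p = 0.00425) and Kif11, the spindle motor (0.56). The Kif11 call was lost when any 1 of the 4 arrays of that day was left out.

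**Figure D5:**
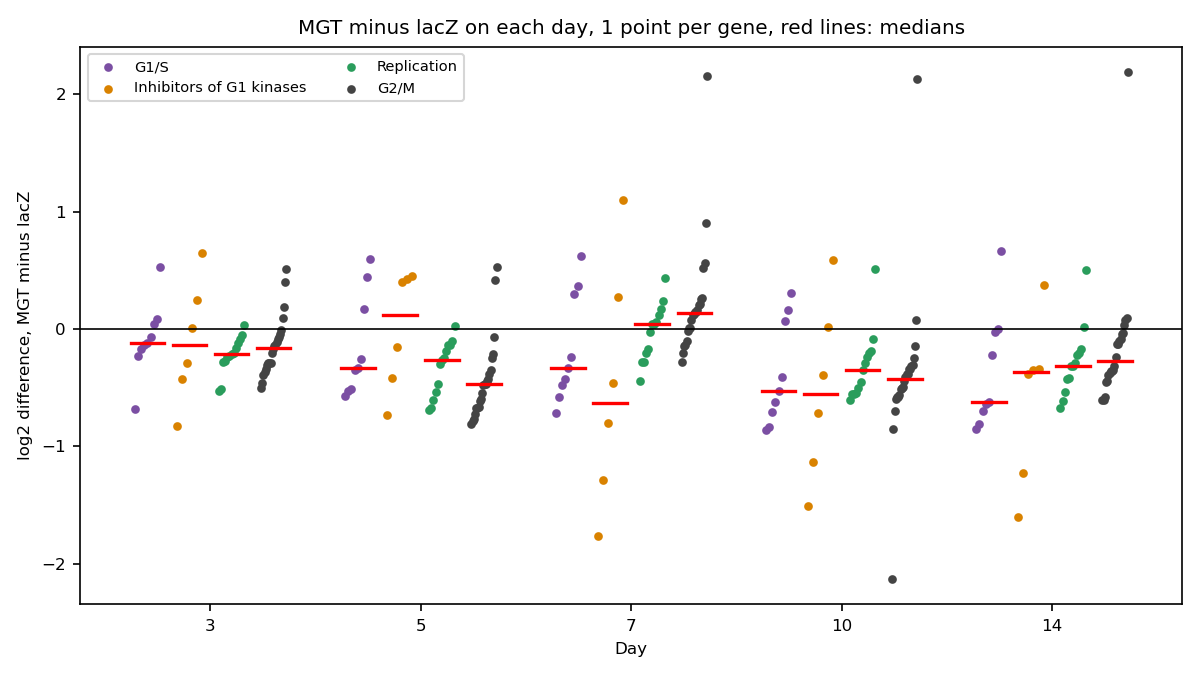
MGT minus lacZ log2 difference of each gene on days 3, 5, 7, 10 and 14, by role, with a red line at the median of the role. The G2/M median lies below 0 on days 3, 5, 10 and 14 and not on day 7, and the lowest day 10 point is Cenpf, which was below background in both groups.

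Some genes kept 1 direction throughout. Lower on all 5 days, by sign, were 21 of the 50 genes: 6 of 9 G1/S genes, 3 of 6 inhibitors, 6 of 13 replication genes and 6 of 22 G2/M genes. Higher on all 5 days, by sign, were 4 genes, among them Ccne2, for which no direction is given on day 14. Over all genes these shares were 30.2% lower and 17.4% higher. Between days 3 and 14 the MGT-lacZ difference changed for 10 members, 8 toward lower and 2 toward higher (27.6% of all genes called, 15.2% lower and 12.3% higher). Those that went lower were the G1/S genes Ccnd2, Ccnd3, Cdk4, Cdk6 and Ccne1 and the inhibitors Cdkn1a, Cdkn2a and Cdkn2b, and those that went higher were Mcm6 and Cenpa. Cdk4 was at -0.23 (SE 0.08, adjusted p = 0.0533) on day 3 and -0.85 (SE 0.08, adjusted p = 2.8e-06) on day 14.

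Results of day 10 rested on which lacZ array was used. With both, 29 members were lower and 3 higher in MGT cultures (39.4% of all genes called, 24.2% lower and 15.2% higher). No share of all genes is given for the fits without 1 array, so the member counts below cannot be set against one. Without lacZ replicate 1, 41 were lower and 1 higher, 21 of the lower ones being G2/M and 11 replication genes. Without lacZ replicate 2, 18 were lower and 5 higher, with 6 G2/M genes and 2 replication genes lower. Of the G1/S genes 6 were lower both with all arrays and without replicate 2. Kif23 was at -0.41 (adjusted p = 0.0083) without replicate 1 and at 0.57 (adjusted p = 0.000972) without replicate 2. Cenpa was at 1.85 without replicate 1 and 2.41 without replicate 2, Cdkn2b at -1.33 and -1.69, and Ccnd1 at -0.95 and -0.71. The macrophage markers summed to 45.7 on replicate 1 and 112 on replicate 2, and their part in the difference was not tested. In lacZ cultures between days 7 and 10, 1 member was lower and 6 higher, Cenpf among them (9% of all genes called, 5.13% lower and 3.87% higher), and without replicate 1 of day 10 these counts were 1 and 26. Without either array of day 7, 3 members were called. MGT cultures had 2 lower and 3 higher over the same days (4.56% of all genes called, 2.35% lower and 2.22% higher), and 2 to 4 were called when 1 array was left out.

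Lists of other genes of the same pathways are read against all genes, of which 40.7% were lower and 23.3% higher in the averaged comparison, with a median of -0.09. Of 39 further mitosis genes, 22 were lower and 1 higher, with a median of -0.17, among them Cep55 (-0.57, SE 0.08, adjusted p = 3.66e-05), Spc24 (-0.54, SE 0.05), Cdc25b (-0.53, SE 0.11) and Cks1b (-0.39, SE 0.04). On day 7 the same list had 4 higher and 1 lower, or 12.8% called, against 37.3% of all genes (22.4% lower and 14.9% higher). Spc25 was at 0.42 and Prc1 at 0.39 on that day. Of 38 further replication genes, 28 were lower and 1 higher, with a median of -0.23, including Rpa1, a subunit of the single-strand binding protein (-0.78, SE 0.03, adjusted p = 2.04e-10), and Mcm10 (-0.43, SE 0.10). Of 29 further genes of G1, the RB/E2F axis and p53, 11 were lower and 8 higher, with a median of -0.04, so that 65.5% were called, close to the 63.9% of all genes. Those with the largest differences were Btg2 at 1.54 (SE 0.04), Gadd45a at -1.52 (SE 0.04), Myc at -1.21 (SE 0.06) and Plk2 at -1.09 (SE 0.03), with adjusted p of 1.57e-12, 6.54e-13, 8.74e-10 and 1.26e-12. Btg2 restrains division, and Myc drives it, but what the differences of these 4 genes do to division was not tested.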

How the data were processed

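Total RNA of each sample was labelled with Cy3 and read on its own 1-colour Agilent 8x60K mouse array, 22 arrays in all. Per the file headers, Agilent Feature Extraction 10.7.3.1 made the deposited spot intensity by subtracting background, with no scaling between arrays. The authors also deposited 1 intensity per gene name, and of its making the submitters' processing notes name limma alone. It was used as an alternative. The main value was log2 of the deposited processed signal minus log2 of the array's 75th percentile. Control and outlier spots were left out, 0 spots were saturated, and spots of a probe were averaged. Probes had to be well above background on the 2 arrays of 1 or more groups (38800 kept, 16881 left out). Of 55681 probes 26056 were named through RefSeq by accession, 3200 by symbol and 930 by synonym. Each gene was read from its brightest kept probe. All 70 probes of the members had the same name in RefSeq. In the averaged comparison 11 of 16 genes with several probes had the same call on each, and 0 had opposite calls. Of the others, Mybl2, Mki67, Cdkn1b and Cdc6 were called lower on 1 of 2 probes, and Cdk1 on 2 of 3.

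Group means of 11 groups were fitted over 22 arrays with limma 3.58.1 in R 4.3.3 (lmFit and eBayes, residual df 11, prior df 1.659), p-values were adjusted by Benjamini-Hochberg over all 18056 genes in each of 16 comparisons, and the threshold was 0.05. The script was tested on simulated data. The members and the other gene lists were chosen with earlier results of these data known. Every member could be named. From each further list, up to 4 genes with the largest called difference in the averaged comparison and up to 2 in any other were named. The number of arrays limits the precision, and no genome or annotation of the mm9 build of the probes was used. Alternatives were the background correction, scaling, dim-probe filter, rule for several probes, deposited table, arrays used, array weights, replicate number as a block, and leaving out each array.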

Additional observations from a re-analysis of the deposited data

Results flagged for a closer look

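For 10 members the MGT minus lacZ difference itself changed between days 3 and 14, by an interaction term in limma with adjustment over all genes. Each value is the day 14 difference minus the day 3 difference on the log2 scale. Day 14 lies on slides 3 and 4 and day 3 on slide 1, so slide and day cannot be told apart.

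In the G1/S group the values were -0.505 for Ccnd2 (SE 0.166, adjusted p = 0.0386), -0.474 for Ccnd3 (SE 0.122, adjusted p = 0.0116), -0.619 for Cdk4 (SE 0.118, adjusted p = 0.002), -0.549 for Cdk6 (SE 0.171, adjusted p = 0.0302) and -0.559 for Ccne1 (SE 0.118, adjusted p = 0.00379). Among the inhibitors they were -0.601 for Cdkn1a (SE 0.138, adjusted p = 0.00608), -0.8 for Cdkn2a (SE 0.176, adjusted p = 0.00473) and -0.776 for Cdkn2b (SE 0.17, adjusted p = 0.00471). Mcm6 was at 0.62 (SE 0.194, adjusted p = 0.0311) and Cenpa at 1.68 (SE 0.205, adjusted p = 8.01e-05). The Ccnd2 and Mcm6 calls were each lost in 7 of the fits that left out 1 array, and the Cdk6 call in 5. For Cdkn1a the second probe was not called (-0.14, SE 0.19). For Cdkn2a the second probe was not called either (-0.61, SE 0.37), and for Cdkn2b it was lower (-0.91, SE 0.13).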

How the results depend on the processing

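The averaged MGT minus lacZ count was 33 to 41 of 50 under the other settings (39 in the main fit), and 37 to 46 when 1 array was left out. Over all members and comparisons, 7475 of 8118 values under other settings kept their sign and call, 400 lost the call, 236 gained it and 7 reversed. Of 4200 values with 1 array left out, 3774 kept both, 354 lost the call, 71 gained it and 1 reversed, which was Kif23 on day 10 without lacZ replicate 1 (-0.41, against 0.57 without lacZ replicate 2). The cause of these changes was not tested.

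Counts that moved were as follows. With normexp background correction 7 members were called on day 3, 5 in lacZ day 5 minus day 3, 1 in MGT day 5 minus day 3 and 3 in lacZ day 10 minus day 7. In that order, the calls over all genes were 3845 of 18055, 3543 of 18055, 3367 of 18056 and 919 of 18056. The deposited table gave 19 on day 5 and 3 in MGT day 5 minus day 3, with 5843 and 3813 of 18024 genes called. No filter on dim probes gave 3 in MGT day 5 minus day 3 and 4 in lacZ day 10 minus day 7. Of all 22804 genes then tested, 4455 and 1827 were called. Using only the arrays of a comparison gave 25 on day 3, 8 on day 10, 7 on day 14, 32 in lacZ and 9 in MGT day 5 minus day 3, and 0 in both day 10 minus day 7 comparisons (limma, with 5 in lacZ and 28 in MGT at an unadjusted p under 0.05). Over all genes these fits called 7367 of 18055 on day 3, 3289 of 18056 on day 10 and 2700 of 18056 on day 14. For day 5 minus day 3 they called 8145 of 18055 genes in lacZ and 4693 of 18056 in MGT cultures. Array weights gave 30 on day 3, 13 on day 14, 33 in lacZ and 16 in MGT day 5 minus day 3, and 3 in lacZ and 17 in MGT day 10 minus day 7. In that order, the calls over all 17922 genes were 9137, 4694, 10095, 7366, 436 and 2181. With 1 array left out, counts were 5 to 7 on day 3, 20 to 23 on day 5, 10 to 15 on day 7, 22 to 42 on day 10, 15 to 22 on day 14, 6 to 7 in lacZ and 1 in MGT day 5 minus day 3, and 3 to 27 in lacZ and 2 to 4 in MGT day 10 minus day 7. The lone array left in such a group was assumed to vary like the other groups.

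Single values that reversed were Ccne2 on day 14 with normexp (-0.12), Cdkn1b on day 14 in the deposited table (0.014), and, with the mean over probes, Cdk1 on day 14 (0.11) and Cdkn1a on day 3 against day 0 in MGT (0.40) and lacZ cultures (0.13). Within slide 1, Mcm6 (-0.13) and Cdkn1c (0.23) reversed in the averaged difference.

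The replicate numbers did not pair the samples: same-numbered arrays deviated with correlations of -0.0906 to 0.156 over 55 pairs of groups. The replicate block gave 38 members in the averaged comparison and 4, against 7, in lacZ day 10 minus day 7, and moved no other count by over 1.5 times. Slide as a random block was not run, because each group lies on 1 slide. The 2 arrays of a group limit all single-day results.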
